A study of Mus musculus with 2 samples.

Results

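Replication-dependent histone genes encode the core histones H2A, H2B, H3 and H4, around which DNA is wrapped, and the linker histone H1. Here they were taken as the rows whose symbols begin with Hist1h, Hist2h, Hist3h or Hist4h and that held at least 20 unique molecular identifiers (UMIs, each standing for 1 captured transcript) over both libraries. Of 67 such rows, 47 met the minimum, out of 31053 genes listed: 5 for H1, 11 for H2A, 14 for H2B, 7 for H3 and 10 for H4. By locus, 38 belonged to the Hist1 cluster, 7 to Hist2, 1 to Hist3 and 1 to Hist4. Just inside the minimum lay Hist1h4m with 20 UMIs and Hist1h3c with 21, and just outside lay Hist1h2bk with 17 and Hist3h2a with 16.

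The study compared natural killer (NK) cells, innate lymphocytes that kill infected or transformed cells, sorted from mouse brain by fluorescence-activated cell sorting. There was 1 library of wildtype C57BL/6 mice and 1 of 3XTg-AD mice, which carry transgenes that model Alzheimer's disease, both from untreated females 8 months old. The sources used here give neither the number of mice behind each library nor the background strain of the 3XTg-AD mice. As each genotype has 1 library, differences were not tested, and the 95% intervals below cover counting error only, neither animals nor preparations nor clumping of UMIs in few cells.

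Most replication-dependent histone transcripts are made in S phase, when new DNA must be packaged. Their messenger RNAs usually carry no poly(A) tail and end instead at a short stem-loop that is bound by Slbp. Replacement histones such as H2afz and H3f3b are made throughout the cell cycle from ordinary polyadenylated transcripts. A histone messenger RNA without a tail is a poor template for the oligo(dT) priming used in most single-cell kits, so the UMIs counted here may cover only a portion of these transcripts. Lymphocytes that divide therefore stand out by these genes, but the levels are set by capture as well as by transcription.

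The stem-loop is printed for 8 members because it is the feature that separates this class of transcripts from other mRNAs, and because it differs between H4 and the other types. The 16 bases in capitals are the hairpin, read from the longest GENCODE M21 transcript of each gene, with up to 5 bases on either side.
Hist1h2ap: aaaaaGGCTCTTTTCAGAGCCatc
Hist2h2aa1: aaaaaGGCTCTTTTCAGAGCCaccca
Hist1h1e: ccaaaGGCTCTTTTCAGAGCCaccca
Hist3h2ba: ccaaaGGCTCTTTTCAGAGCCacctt
Hist1h3e: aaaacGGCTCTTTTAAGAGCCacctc
Hist1h4n: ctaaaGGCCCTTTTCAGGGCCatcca
Hist1h4i: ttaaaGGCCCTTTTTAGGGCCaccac
Hist1h4a: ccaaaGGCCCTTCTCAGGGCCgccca

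The histone stem-loop consensus was found in the annotated transcripts of 32 of the 47 members, in 6 versions, of which the hairpin shown for Hist1h2ap was the most common, in 18 members. By the annotated stop codons, the hairpin lay 21 to 58 bases past the coding part in these 32. No match in the other 15 says only that the letters are not in those models. In 18 of the 32, an annotated transcript ran more than 100 bases past the hairpin. Of these, 12 held the letters of a poly(A) signal, AATAAA or ATTAAA, anywhere in that stretch. The stretches were up to 4884 bases long, and how often other sequence holds these letters was not counted.

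The promoters of 42 of the 47 members were matched to RefSeq start sites on GRCm38.p6 and read over the 150 bases upstream. CCAAT, sought on both strands, was present in 36 of the 42 (85.7%), against 24.5% of all 32851 promoter windows of that length. It was in every matched H1, H2A, H2B and H3 promoter but in 3 of 9 for H4. TATAAA on the gene's strand was in 17 of 42 (40.5%), against 4.84% of all windows. The octamer ATTTGCAT on either strand was in 7 of 42 (16.7%), against 0.998% of all windows, and these were 4 of 12 H2B and 3 of 11 H2A promoters. Some H2A and H2B windows overlap on opposite strands, so a match there can be counted for both genes, as was the octamer of Hist1h2ae. The counts are thus of promoters and not of separate sites. A match is a description of letters and not of a bound site.

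Promoters of 5 members are shown because these genes mark the extremes of the values below: the H2A gene with most UMIs, a linker histone gene found mostly in marker-positive barcodes, an H2B gene that was not, and 2 H4 genes whose ratios between libraries lay at opposite ends. Capitals mark CCAAT or its reverse complement and TATAAA.
Hist1h2ap, chr13:21833476-21833625, minus strand: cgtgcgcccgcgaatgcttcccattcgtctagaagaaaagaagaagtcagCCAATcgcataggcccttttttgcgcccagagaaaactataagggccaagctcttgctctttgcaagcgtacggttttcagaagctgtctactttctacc
Hist1h1b, chr13:21780626-21780775, minus strand: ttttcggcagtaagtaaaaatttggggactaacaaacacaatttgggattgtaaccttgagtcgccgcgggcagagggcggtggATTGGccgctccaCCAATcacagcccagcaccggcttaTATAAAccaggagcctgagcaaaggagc
Hist3h2ba, chr11:58948761-58948910, plus strand: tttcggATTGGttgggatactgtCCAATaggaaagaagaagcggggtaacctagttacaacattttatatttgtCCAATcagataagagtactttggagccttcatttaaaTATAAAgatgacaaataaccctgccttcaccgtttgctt
Hist1h4n, chr13:21832198-21832347, minus strand: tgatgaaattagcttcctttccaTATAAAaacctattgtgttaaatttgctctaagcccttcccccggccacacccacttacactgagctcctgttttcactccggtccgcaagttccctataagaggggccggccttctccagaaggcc
Hist1h4i, chr13:22041363-22041512, minus strand: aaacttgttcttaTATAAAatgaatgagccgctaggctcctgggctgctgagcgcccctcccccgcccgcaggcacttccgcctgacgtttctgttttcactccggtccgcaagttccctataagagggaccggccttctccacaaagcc

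The wildtype library held 1709 barcodes and 5559995 UMIs and the 3XTg-AD library 1695 barcodes and 5468455 UMIs, with medians of 2930 and 2846 UMIs per barcode. After filters, 1650 and 1668 barcodes were kept, and 1 barcode sequence was shared by both libraries. NK barcodes, set by at least 3 summed UMIs of Ncr1, Klrb1c, Klre1, Eomes and Prf1 without markers of other cells, made up 1467 (88.9%) and 1516 (90.9%) of them, and 96.3% and 98.1% of these held the NK receptor gene Ncr1. Of the NK barcodes, 73 and 28 lay near that limit, with 3 or 4 marker UMIs. NK barcodes were split by Mki67, Top2a and Pclaf, which dividing cells express: 39 wildtype and 35 3XTg-AD barcodes held at least 1 UMI of these genes (marker-positive), and 1428 and 1481 held none (marker-negative). Exactly 1 such UMI was held by 26 of the 39 and 17 of the 35, so the positive class is a range and not a cell type, and it is under 50 barcodes in each library. Levels are CPM, a gene's UMIs scaled to 1000000 UMIs of the barcodes summed, and a ratio is 3XTg-AD over wildtype.

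In NK barcodes the histone genes together gave 2864 UMIs in wildtype and 5309 in 3XTg-AD, or 624 and 1146 CPM, a ratio of 1.84 (95% interval 1.75 to 1.92). With at least 20 UMIs in these barcodes, 45 members could be compared. A ratio of at least 1.5 was found for 29 of the 45, while 6.5% of all 9825 genes compared reached it. A ratio of 1/1.5 or less was found for 0 of 45, against 5.74% of all genes. The median log2 ratio of the members was 0.75, against 0.05 for all genes, and 22 of the intervals lay above 1 and 1 below. How many of all genes had an interval above or below 1 was not counted, so these 2 counts cannot be set against other genes. Without the 1% of barcodes with the most histone UMIs in each library, the summed ratio was 1.68, and of 34 members still compared 17 passed 1.5-fold upward and 2 downward. With every barcode thinned to 1400 UMIs, 14 of 28 passed upward and 1 downward. The share of all genes past 1.5-fold was not counted under either of these settings.

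**Figure D1:**
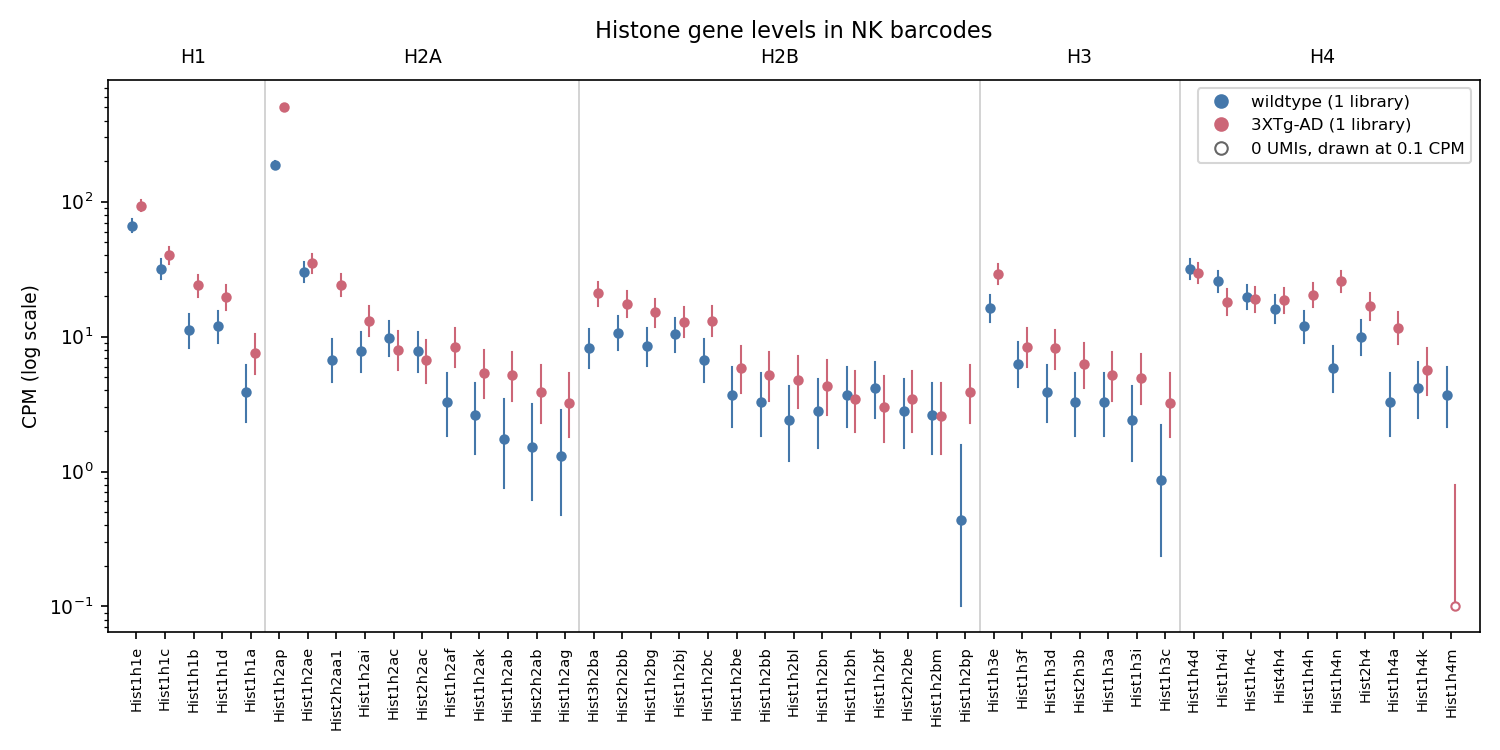
Level of each of the 47 histone genes in NK barcodes of the wildtype (blue) and 3XTg-AD (red) library, in CPM on a log scale, grouped by histone type, with lines for the 95% counting interval. Hist1h2ap stands highest, at 186 and 501 CPM, and most of the other pairs lie below 40 CPM, with red above blue for 37 of the 45 compared genes but not for Hist1h4d, Hist1h4i or Hist1h4c.

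Among the linker histones, which bind the DNA between nucleosomes, all 5 were compared and 3 were at least 1.5-fold higher in 3XTg-AD. Hist1h1e had the most UMIs, 305 in wildtype and 433 in 3XTg-AD, a ratio of 1.41 (1.21 to 1.63). It overlaps Hist1h2be on the same strand, so counts of these genes may be mixed. Hist1h1c gave 146 and 186 UMIs, a ratio of 1.26 (1.01 to 1.58), the smallest of this type. Hist1h1b gave 51 and 111 UMIs, a ratio of 2.16 (1.53 to 3.07), and Hist1h1a 18 and 35, a ratio of 1.93 (1.06 to 3.61). The linker genes thus leaned the same way, with the 2 most counted ones differing least.

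H2A and H2B form the outer dimers of the nucleosome. Of 11 H2A genes, 8 were at least 1.5-fold higher, and Hist1h2ap held most of their UMIs: 856 in wildtype and 2319 in 3XTg-AD, or 186 and 501 CPM, a ratio of 2.68 (2.48 to 2.91). Without Hist1h2ap, the summed ratio of the other 46 members was 1.48 (1.39 to 1.56), so that gene carried much of the summed difference. Hist2h2aa1 gave 31 and 112 UMIs, a ratio of 3.58 (2.39 to 5.52), spread over 31 and 102 barcodes. Hist1h2ae, the second most counted H2A gene, gave 138 and 162 UMIs, a ratio of 1.16 (0.92 to 1.47) whose interval held 1. Hist1h2ac (45 and 37 UMIs, ratio 0.815) and Hist2h2ac (36 and 31, ratio 0.853) had intervals that also held 1, and without the top 1% of barcodes the ratio of Hist1h2ac was 1.32.

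Of 14 H2B genes, 9 were at least 1.5-fold higher. Hist3h2ba gave 38 and 97 UMIs, a ratio of 2.53 (1.72 to 3.78), in 38 and 92 barcodes with no more than 2 UMIs in any. Hist1h2bc gave 31 and 61, a ratio of 1.95 (1.25 to 3.11). Hist2h2bb gave 49 and 81, a ratio of 1.64, but 31 of the 3XTg-AD UMIs lay in 1 barcode, the ratio was 0.942 without the top 1% of barcodes, and it was 1.01 after thinning. Hist1h2bj, with 48 and 60 UMIs and a ratio of 1.24 (0.83 to 1.85), did not differ beyond counting error. The largest ratio of any member, 8.92 for Hist1h2bp, rests on 2 and 18 UMIs, with an interval of 2.14 to 79.3.

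H3 and H4 form the central tetramer. Of 6 H3 genes compared, 5 were at least 1.5-fold higher. Hist1h3e gave 75 and 136 UMIs, a ratio of 1.80 (1.35 to 2.41), Hist1h3d gave 18 and 38, a ratio of 2.09 (1.16 to 3.89), and Hist1h3f gave 29 and 39, a ratio of 1.33 (0.80 to 2.23). H4 had the lowest share, with 4 of 9 at least 1.5-fold higher, and its genes ran in both directions. Hist1h4n gave 27 and 119 UMIs, a ratio of 4.37 (2.86 to 6.90), and Hist1h4a 15 and 54, a ratio of 3.57 (1.98 to 6.81). Hist1h4i gave 118 and 84 UMIs, a ratio of 0.705 (0.53 to 0.94), the one interval below 1. Hist1h4d (146 and 138 UMIs, ratio 0.937) and Hist1h4c (91 and 88, ratio 0.958), which with Hist1h4i had the most H4 UMIs, had intervals that held 1. The H4 genes with the most UMIs were therefore not the ones that were higher in 3XTg-AD.

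Copies of these genes are nearly identical, so a read may not tell them apart. Of the 75-base windows of the longest annotated transcript, the length of 1 read, a median of 63.8% per member were found in no other gene, but 16 members were under 50%. For Hist1h2ap it was 7.35%, since it shares 378 windows with Hist1h2ao, a row that held 0 UMIs. Hist1h4n (16.6%) shares 292 windows with Hist1h4m, and Hist2h2aa1 (11.1%) overlaps the predicted gene Gm20634 on the same strand. Hist1h2ap and most other H2A genes also overlap predicted genes on the opposite strand (Gm44466 for Hist1h2ap), and no source used here says whether strand was used in counting. Hist1h4m gave 17 UMIs in wildtype NK barcodes and 0 in 3XTg-AD, where its level was lower by 5.72-fold or more (floor of 3 UMIs over the class), whereas its near copy Hist1h4n was higher. Summed, the pair gave 44 and 119 UMIs, a ratio of 2.68 (1.88 to 3.88), against 4.37 for Hist1h4n alone. Of members with at least 50% unique windows, 17 of 30 were at least 1.5-fold higher, a median log2 ratio of 0.66, and of those under 50%, 12 of 15, a median of 0.99. Summed over the first group alone the ratio was 1.37. The kit reads from 5′ ends, so the same was counted over the 200 windows nearest the start of the longest annotated transcript, of which fewer than 50% were unique in 20 members. By that measure 13 of 26 members at or above 50% were at least 1.5-fold higher, around a median log2 ratio of 0.58, and 16 of 19 below it, around 0.94. Over those 26 alone the summed ratio was 1.38 (1.29 to 1.47). Whether the split of reads plays a part in the ratios was not tested.

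**Figure D2:**
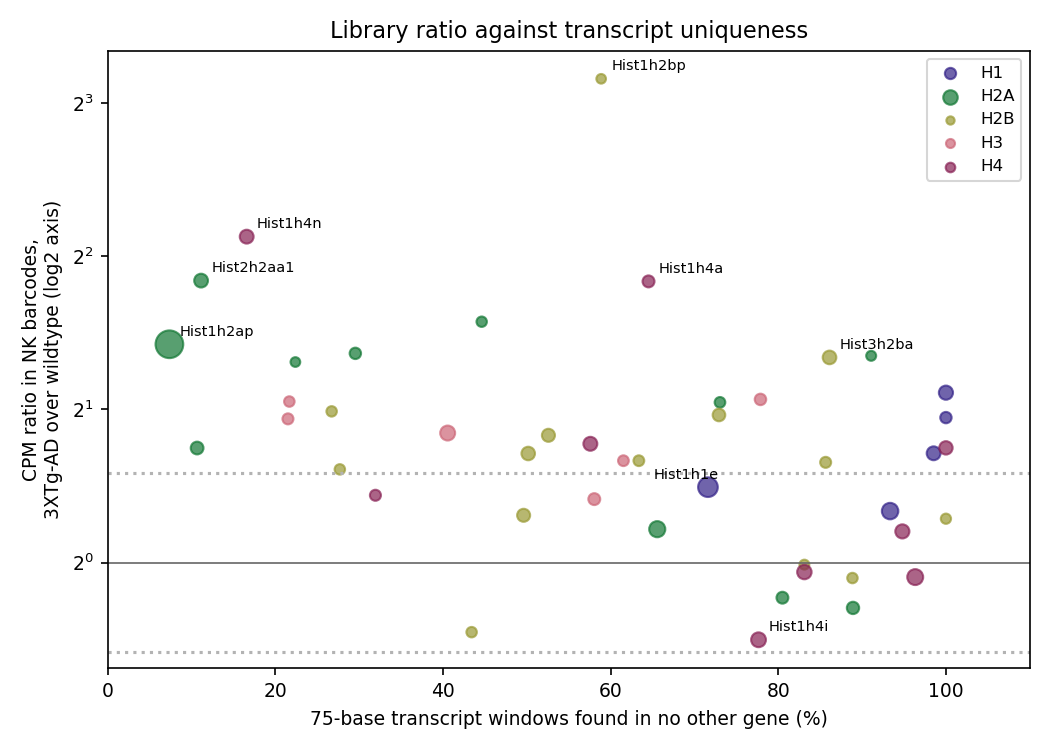
Ratio of CPM in NK barcodes (3XTg-AD over wildtype, log2 axis) for the 45 compared members against the percentage of 75-base windows of each member's longest transcript that no other gene holds, with point area growing with UMIs and dotted lines at 1.5-fold. Hist1h2ap, Hist2h2aa1 and Hist1h4n lie at the left, under 20% unique, while Hist1h4a and Hist3h2ba reach ratios of 3.57 and 2.53 at 64.5% and 86.1%.

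How tightly each gene followed division was read within each library from the level in marker-positive over marker-negative NK barcodes. Summed over members the level was 4250 CPM against 403 in wildtype, 10.6-fold (9.78 to 11.4), and 8738 against 676 in 3XTg-AD, 12.9-fold (12.2 to 13.6). Marker-positive barcodes held 39.1% and 44.4% of the histone UMIs. For 28 of the 47 members the interval of this fold lay above 1 in both libraries, for 10 in 1 library, and for 8 in neither. Of the 45 members with at least 20 NK UMIs, 27 were above 1 in both, against 4.74% of all 9822 genes with that minimum other than the 3 markers. The remaining member, Hist1h4m, had 0 UMIs in 3XTg-AD.

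The most division-linked members were spread over the types. All 19 NK UMIs of Hist1h3c lay in marker-positive barcodes. Hist1h1b was 88.2-fold higher there in wildtype and 69.3-fold in 3XTg-AD, from 43 against 8 UMIs and 90 against 21. Hist1h2ap was 38.0-fold (32.8 to 44.2) and 27.3-fold (25.1 to 29.8) higher, and Hist1h2ae 37.5-fold and 27.5-fold. At the other end stood Hist1h4c, Hist1h4i, Hist4h4, Hist1h4n, Hist2h2aa1, Hist3h2ba, Hist1h2bf and Hist2h2be, whose intervals held 1 in both libraries. Hist4h4, for instance, gave 6 marker-positive and 68 marker-negative UMIs in wildtype, 1.45-fold, and 2 and 84 in 3XTg-AD, 0.385-fold. H4 supplied 4 of these 8 genes, and Hist1h4n, Hist2h2aa1 and Hist3h2ba, among the largest ratios between libraries, were 3 of them.

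Transcript models that ran past the hairpin belonged to members with less of their UMIs in marker-positive barcodes. Over the 18 such members a median of 21.5% of NK UMIs lay there, within a range of 5% to 66%, and over the 14 that ended near the hairpin the median was 37.8%, within 0% to 100%. The ranges overlapped nearly fully, and these medians are a description over genes.

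**Figure D3:**
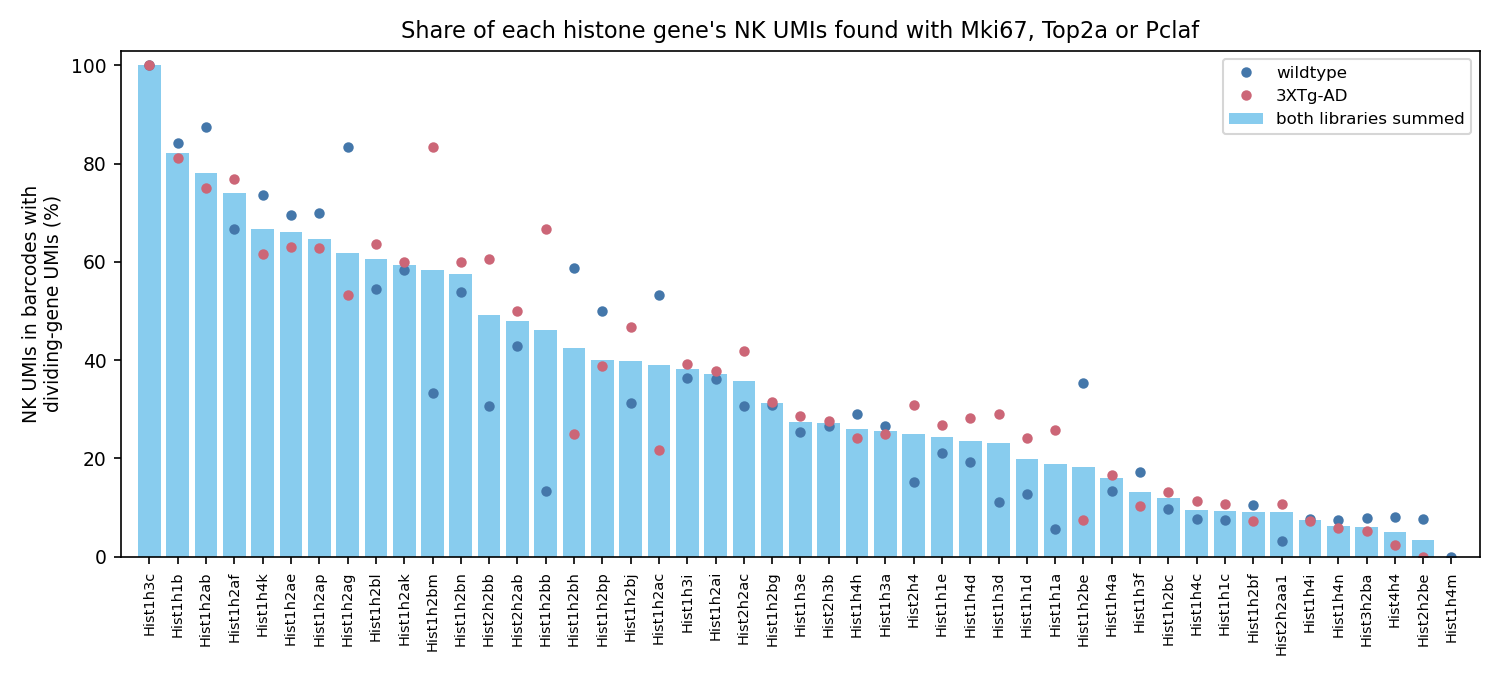
Percentage of each member's NK UMIs that lay in barcodes with at least 1 UMI of Mki67, Top2a or Pclaf, for both libraries summed (bars) and for each library (points). It runs from 100% for Hist1h3c and 82.1% for Hist1h1b down to under 10% for Hist1h4i, Hist1h4n, Hist3h2ba and Hist4h4. The points of the libraries lie close for Hist1h2ap (69.9% in wildtype, 62.8% in 3XTg-AD) and Hist1h1e (21.0% and 26.8%). They lie apart for Hist2h2bb (30.6% and 60.5%) and Hist1h2ac (53.3% and 21.6%).

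In marker-positive NK barcodes, 21 members could be compared, and the summed ratio was 2.06 (1.91 to 2.21). A ratio of at least 1.5 was found for 15 of 21, against 16.4% of 3654 genes, and of 1/1.5 or less for 1, against 10.3%. The median log2 ratio was 0.87, against 0.07 for all genes. All 4 compared H1 genes and all 4 compared H2B genes were at least 1.5-fold higher, as were 5 of 8 H2A genes, the 1 H3 gene and 1 of 4 H4 genes. Among the H2B genes every interval held 1 except that of Hist2h2bb, and 31 of its 49 3XTg-AD UMIs lay in 1 barcode. Among the H1 genes the interval of Hist1h1c held 1 (0.81 to 4.11). Hist1h1b gave 43 and 90 UMIs, a ratio of 2.05 (1.41 to 3.01), and Hist1h2ap 598 and 1457, a ratio of 2.38 (2.16 to 2.62). Hist1h2ae, which followed division as closely, gave 96 and 102 UMIs, a ratio of 1.04 (0.78 to 1.39). Hist1h2ac went the other way, with 24 and 8 UMIs and a ratio of 0.326 (0.13 to 0.75), spread over 8 and 3 barcodes. The 24 3XTg-AD UMIs of Hist2h4 lay in 2 barcodes, 21 of them in 1.

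The marker-positive class was uneven within each library. A wildtype barcode of the class held a median of 2 histone UMIs (0 to 224) and a 3XTg-AD barcode a median of 6 (0 to 345), so the ranges overlapped. Of its barcodes, 7 of 39 in wildtype (17.9%, exact binomial interval 7.5% to 33.5%) and 15 of 35 in 3XTg-AD (42.9%, 26.3% to 60.6%) held at least 5 Hist1h2ap UMIs. Over the class the Hist1h2ap level was 2267 and 5399 CPM. The class was also limited to barcodes with 2 or more summed marker UMIs, 13 in wildtype and 18 in 3XTg-AD. The summed ratio of the members was then 1.47 (1.36 to 1.58). At that limit 8 members passed 1.5-fold upward, and the share of all genes was not counted. Genes of DNA replication and of the G2 and M phases were also higher over the class in 3XTg-AD, at 3264 and 4521 CPM for the replication list and at 7230 and 8927 CPM for the G2 and M list without the class's own markers. How much of the histone difference goes with the number of cells in S phase, and how much with the level per cell, was not tested.

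**Figure D4:**
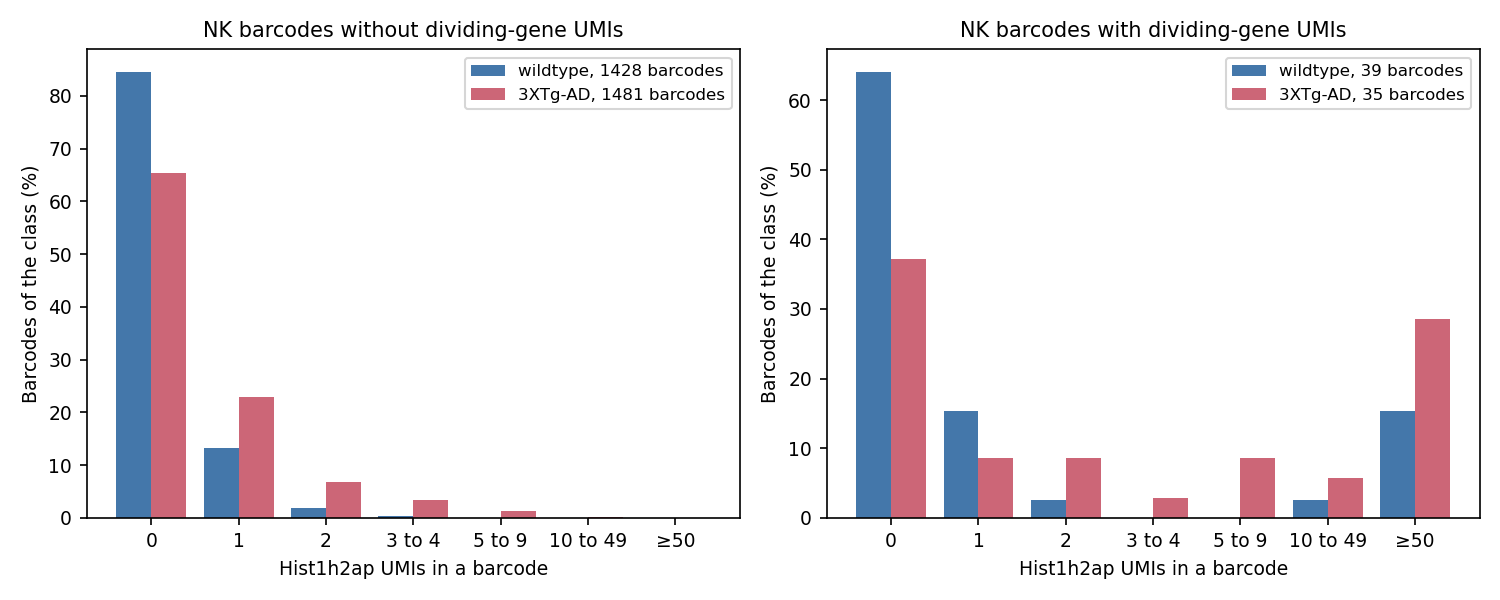
Percentage of NK barcodes with a given number of Hist1h2ap UMIs in the wildtype (blue) and 3XTg-AD (red) library, for barcodes without (left) and with (right) UMIs of Mki67, Top2a or Pclaf. On the left the red bars are higher from 1 UMI on and reach 10 to 49 UMIs, while blue ends at 3 to 4; on the right 15.4% of wildtype and 28.6% of 3XTg-AD barcodes hold 50 or more.

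In marker-negative NK barcodes, 34 members could be compared, and the summed level was 403 CPM in wildtype and 676 CPM in 3XTg-AD, a ratio of 1.68 (1.58 to 1.78), or 1.40 (1.30 to 1.49) without Hist1h2ap. A ratio of at least 1.5 was found for 17 of 34, against 6.16% of 9662 genes, and of 1/1.5 or less for 1, Hist1h2bb with 13 and 8 UMIs, against 5.76%. The median log2 ratio was 0.57, against 0.05 for all genes. Hist1h2ap gave 258 and 862 UMIs, 59.6 and 198 CPM, a ratio of 3.31 (2.88 to 3.82). Hist1h4n gave 25 and 112, a ratio of 4.44, Hist1h4a 13 and 45, a ratio of 3.43, Hist2h2aa1 30 and 100, a ratio of 3.31, and Hist3h2ba 35 and 92, a ratio of 2.61. Hist1h4i stayed at 109 and 78, a ratio of 0.71 (0.52 to 0.96), and Hist1h1e was 1.30-fold higher (1.10 to 1.55).

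**Figure D5:**
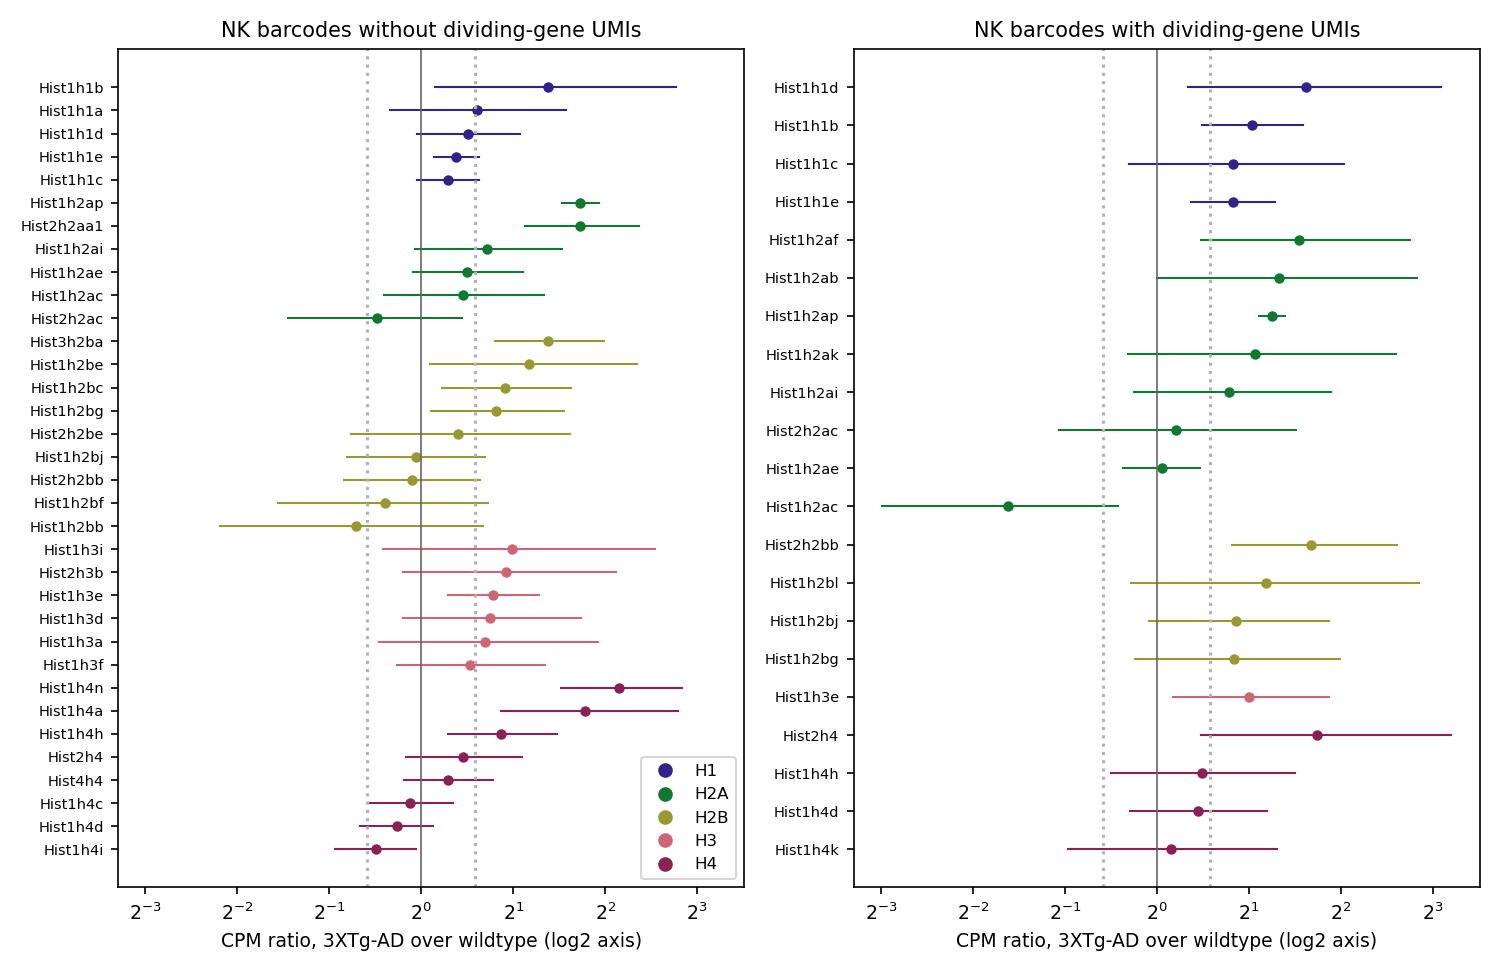
Ratio of CPM (3XTg-AD over wildtype, log2 axis) with its 95% counting interval for each compared member in marker-negative (left, 34 genes) and marker-positive (right, 21 genes) NK barcodes, coloured by histone type, with dotted lines at 1.5-fold in each direction. On the left Hist1h4n stands highest at 4.44 and Hist1h2bb lowest at 0.61; on the right Hist2h4 stands highest at 3.35 and Hist1h2ac lowest at 0.326.

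T cell and microglia barcodes without dividing-gene UMIs, 38 in wildtype and 63 in 3XTg-AD, also held histone UMIs, which bears on how the low counts can be read. Together they gave 378 and 631 histone CPM, a ratio of 1.67 (1.23 to 2.29), close to that of the marker-negative NK barcodes. The mix of types differed, with 31 and 33 T barcodes and 7 and 30 microglia barcodes, and microglia had the higher level. Within T barcodes the ratio was 1.41 (0.95 to 2.12) and within microglia it was 1.28 (0.75 to 2.32). For the members other than Hist1h2ap it was 1.08 (0.69 to 1.69) in T barcodes and 1.02 (0.59 to 1.87) in microglia, against 1.40 in NK barcodes, with intervals that reached 1.40 in both. Hist1h2ap itself was higher in T barcodes, with 3 and 20 UMIs, a ratio of 5.72 (1.70 to 30.1). In microglia it gave 0 UMIs in the 7 wildtype and 20 in the 30 3XTg-AD barcodes, and the interval of the ratio began at 1.02.

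At least 1 Hist1h2ap UMI was found in 15.4% of wildtype and 34.6% of 3XTg-AD marker-negative NK barcodes, at median depths of 2858 and 2773 UMIs. In the T and microglia barcodes it was 5.26% (2 of 38, exact interval 0.64% to 17.7%) and 38.1% (24 of 63, 26.1% to 51.2%), at 3374 and 4072 UMIs. At full depth the 3XTg-AD share in NK barcodes was thus no higher than in these T and microglia barcodes, which are not free of NK transcripts. Thinning to 1400 UMIs, which left out 105 and 80 NK and 3 and 3 other barcodes, gave the other order in 3XTg-AD, with intervals that overlapped: the NK shares were 7.33% and 21.4% (19.3% to 23.7%) and the others 2.86% (1 of 35) and 11.7% (7 of 60, 4.82% to 22.6%). The level in 3XTg-AD was 198 CPM in NK and 150 CPM (107 to 205) in the other barcodes. For Hist1h4n, 6.89% of 3XTg-AD marker-negative NK barcodes and 7.94% (5 of 63) of the others held a UMI. For Hist3h2ba it was 5.94% and 6.35% (4 of 63), and for Hist2h2aa1 6.48% and 7.94% (5 of 63). Of the 21 histone genes chosen for naming, some had an NK share at or below that of T and microglia barcodes. At full depth, where the T and microglia barcodes were the deeper ones, these were 9 in wildtype and 10 in 3XTg-AD. After thinning they were 5 and 5. For 6 of the 21 in wildtype and 5 in 3XTg-AD, T and microglia barcodes held no UMI, so the NK share could not be lower. The share of all genes in that order was not counted, so these counts cannot be set against other genes. The low counts of the histone genes in marker-negative barcodes are given as levels in the library and not as expression by NK cells. How much of them is free RNA was not tested.

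Hist1h2ap reached at most 3 UMIs in a wildtype marker-negative NK barcode, while 22 of 1481 in 3XTg-AD held 5 to 17, with a median of 6. The highest value in the 63 3XTg-AD T and microglia barcodes was also 6, so these ranges overlapped. These 22 barcodes were set apart by that count, so their Hist1h2ap level is no finding. The other histone genes gave 1521 CPM in them and 461 CPM in the remaining 1459, and Hist1h1e 387 and 67.3 CPM. Replication genes stood at 1051 and 942 CPM and G2 and M phase genes at 912 and 948 CPM, and the counting intervals of each list overlapped. Nr4a1, an early gene of lymphocyte activation, stood at 511 and 47.8 CPM and was found in 6 of the 22, 1 of which held 21 of its 37 UMIs. The heat shock genes Hspa1a and Hspa1b together stood at 456 and 120 CPM, in 10 of the 22, and the part of these genes was not tested. Without these barcodes the summed ratio of the marker-negative class was 1.55. That limit took out 0 wildtype barcodes, so a fall from 1.68 was built into it.

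ILC1-like barcodes, which hold at least 3 summed UMIs of Itga1, Cxcr6, Inpp4b, Gzmc and Tnfsf10, genes of tissue-resident innate lymphoid cells, numbered 95 in wildtype and 74 in 3XTg-AD. Of these, 21 and 23 had exactly 3 such UMIs, and the NK gene Ncr1 was in 88.4% and 98.6% of them, so the class is not free of NK cells. The histone genes gave 261 and 215 UMIs, 483 and 504 CPM, a ratio of 1.04 (0.87 to 1.26). In this class 4 members could be compared: 0 were at least 1.5-fold higher, against 9.98% of 5231 genes, and 1 was past 1.5-fold in either direction (Hist1h4d, lower with 14 and 7 UMIs), against 22.0%. The median log2 ratio was -0.18, against -0.01 for all genes. Hist1h2ap gave 102 and 86 UMIs, 189 and 202 CPM, a ratio of 1.07 (0.79 to 1.44), and Hist1h1e 30 and 26, a ratio of 1.10 (0.62 to 1.92). A single barcode held 145 of the 261 wildtype histone UMIs and another 92 of the 215 in 3XTg-AD. Without these barcodes the ratio was 1.35 (1.04 to 1.76), and with at least 5 marker UMIs (61 and 37 barcodes) it was 0.522, so the value moved with single barcodes and with the limit. Whether its ratio differs from that of NK barcodes was not tested.

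Other genes of the histone pathway had smaller median ratios in NK barcodes than the histone genes themselves. Of all genes compared there, 6.5% passed 1.5-fold upward and 5.74% downward. Of 11 replacement histones, 9 could be compared in NK barcodes, and 0 passed 1.5-fold in either direction, with a median log2 ratio of -0.07. H2afv, an H2A.Z variant, gave 1177 and 1457 UMIs, a ratio of 1.23, H2afy, the macroH2A gene, 1240 and 1418, a ratio of 1.13, H2afj 2511 and 2209, a ratio of 0.872, and H3f3b, which encodes H3.3, 7536 and 7044, a ratio of 0.926. Of 17 factors that make or decay histone mRNA, 16 were compared and 0 passed 1.5-fold, with a median of 0.07. Slbp, the stem-loop binding protein, gave 804 and 1000 UMIs, a ratio of 1.23 (1.12 to 1.35), and 71 and 123 in marker-positive barcodes, a ratio of 1.69 (1.25 to 2.30). Npat, the coactivator of histone gene transcription, gave 37 and 46 UMIs (0.78 to 1.95 for its ratio of 1.23). Upf1, a helicase used in histone mRNA decay, gave 134 and 95, a ratio of 0.703 (0.53 to 0.92), and Sympk, a scaffold of 3′ end processing, 85 and 109, a ratio of 1.27 (0.95 to 1.71).

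Histone chaperones, which carry histones to DNA, had 1 of 17 compared genes past 1.5-fold upward in NK barcodes, their median being 0.13. In marker-positive barcodes this was 9 of 15, with a median of 0.74, where the histone genes had 15 of 21 and 0.87. Of all genes, 6.5% passed upward and 5.74% downward in NK barcodes, and 16.4% and 10.3% in marker-positive barcodes. In NK barcodes Nasp, a chaperone of H3 and H4, gave 145 and 207 UMIs, a ratio of 1.41 (1.14 to 1.76), Hat1, a histone acetyltransferase, 133 and 175, a ratio of 1.30, and Rbbp4 801 and 1000, a ratio of 1.24. Asf1b, a chaperone of dividing cells, gave 62 and 87, a ratio of 1.39 (0.99 to 1.96). Of 40 DNA replication genes, 4 passed 1.5-fold upward and 1 downward in NK barcodes, around a median of 0.19, and in marker-positive barcodes 12 of 33 passed upward and 0 downward, around 0.51. Tk1, thymidine kinase, gave 18 and 49 UMIs, a ratio of 2.70 (1.54 to 4.92), Pola1, a DNA polymerase subunit, 26 and 50, a ratio of 1.91, Mcm5, of the replicative helicase, 97 and 146, a ratio of 1.49, and Cdt1, which licenses origins, 136 and 194, a ratio of 1.41. Of 43 G2 and M phase genes compared, which include the class markers Mki67 and Top2a, 14 passed upward and 2 downward, around a median of 0.32. Among them Cdc20 gave 16 and 36 UMIs, a ratio of 2.23, Hjurp 56 and 114, a ratio of 2.02, Nusap1 40 and 77, a ratio of 1.91, and Ccnb2 35 and 65, a ratio of 1.84. In marker-negative barcodes the replication genes stood at 921 and 944 CPM, around a median of 0.03, whereas the histone median there was 0.57. There 1 of 33 replication genes passed upward and 2 downward, against 6.16% and 5.76% of all genes.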

How the data were processed

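The authors deposited raw UMI counts per gene and barcode for each library, made with the 10x Genomics 5′ kit. Cell Ranger 3.1.0, STAR and mm10 are named per the submitters' processing notes, and software 3.0.2 per the file headers, with the annotation release not stated in any source used here. Barcodes with under 300 genes (45 wildtype, 10 3XTg-AD) or over 10% mitochondrial UMIs (2 and 0) and Scrublet doublets (12 and 17) were left out. T, B and microglia barcodes held at least 3 UMIs of their markers, and barcodes with over 20% erythroid or neutrophil UMIs were set aside. Counts were summed per class. Ratios have exact conditional binomial 95% intervals and shares have Clopper-Pearson intervals (scipy 1.17.1, numpy 2.4.6, Python 3.11.15). A gene needed 20 UMIs in a class to be compared, and called means past 1.5-fold. The ratio code was tested on simulated Poisson counts.

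Named members are, per type, the 3 with the most UMIs and the 2 largest and 2 smallest ratios among those with 50 NK UMIs, and up to 4 per list. Hist1h2bp, Hist1h3c, Hist4h4, Hist1h2bf, Hist2h2be, Hist1h2bb, Hist2h4, Hist1h4m, Nr4a1, Hspa1a and Hspa1b were named after their values were seen. Members, lists and rules were chosen with earlier results of these data known. Windows and hairpins come from GENCODE M21 transcripts on mm10 and promoters from RefSeq. Near-identical copies make the split of reads uncertain, and no step here reassigns such reads.

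Alternatives were another minimum, scaling, doublets kept, stricter filters, thinning to 1400 UMIs, top barcodes left out, other gates, and scanpy 1.11.5 clusters (igraph 0.11.9) made without the histone genes. After seeing the data, leaving out Hist1h2ap, members under 50% unique (over the transcript or its first 200 windows), or barcodes with 5 or more Hist1h2ap UMIs was added.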

Additional observations from a re-analysis of the deposited data

Results flagged for a closer look

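For 5 genes the ratio of 3XTg-AD over wildtype lay on opposite sides of 1 in marker-negative and marker-positive NK barcodes. It was 0.714 and 1.16 for Hist2h2ac, 0.933 and 3.19 for Hist2h2bb, 0.962 and 1.82 for Hist1h2bj, 0.832 and 1.36 for Hist1h4d, and 1.37 and 0.326 for Hist1h2ac. For Hist1h2ae it was 0.734 in ILC1-like and 1.16 in NK barcodes. None of these differences was tested. In each case but Hist2h2bb and Hist1h2ac, both intervals held 1. Of the 49 marker-positive 3XTg-AD UMIs of Hist2h2bb, 31 lay in 1 barcode. The marker-positive UMIs of Hist1h2ac, 24 in wildtype and 8 in 3XTg-AD, lay in 8 and 3 barcodes. The intervals do not cover such clumping.

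Outside the classes compared, 1 3XTg-AD barcode set aside as neutrophil-like, with 21855 UMIs in all, held 99 UMIs of Hist1h2ap. The 20 histone rows under the minimum held 98 UMIs over both libraries, 38 in wildtype and 60 in 3XTg-AD, and 5 of these rows held none.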

How the results depend on the processing

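No paired analysis was possible because each group has 1 library. In NK barcodes the summed ratio of 1.84 became 1.68 without the top 1% of barcodes, 1.48 without Hist1h2ap, 1.37 over members at least 50% unique and 1.38 by uniqueness of the first 200 windows. The count of 29 higher members became 17 with a minimum of 50 UMIs, 14 thinned, 17 without the top 1%, 17 by uniqueness and 13 by the first 200 windows, and the count lower (0) became 1 thinned and 2 without the top 1%. Hist2h2bb (1.64) became 0.942 without the top 1%. In marker-negative barcodes the ratio of 1.68 became 1.40 without Hist1h2ap, 1.29 by uniqueness, 1.30 by the first 200 windows and 1.55 without barcodes of 5 or more Hist1h2ap UMIs. There, 17 higher became 10 at 50 UMIs, 26 with no minimum, 10 by uniqueness and 6 by the first 200 windows, and 1 lower became 0 at 50 UMIs, 2 with no minimum and 2 in clusters. In marker-positive barcodes the ratio of 2.06 became 2.39 thinned, 2.29 without the top 1%, 1.47 with 2 marker UMIs, 1.68 without Hist1h2ap, 1.60 by uniqueness and 1.57 by the first 200 windows. There, 15 higher became 5 at 50 UMIs, 31 with no minimum, 2 thinned, 8 with 2 marker UMIs, 8 by uniqueness and 9 by the first 200 windows, and 1 lower became 0 at 50 UMIs, 6 with no minimum and 0 thinned. In ILC1-like barcodes the ratio of 1.04 became 1.35 without the top 1% or without barcodes of 5 or more Hist1h2ap UMIs, and 0.522 with 5 marker UMIs. There, 0 higher became 8 with no minimum and 1 without the top 1% or those barcodes, and 1 lower became 8 with no minimum and 0 at 50 UMIs, thinned, without the top 1% or without those barcodes. Fewer genes tested, barcodes or UMIs are built into the changes of minimum, the thinning, uniqueness, the top 1% and the limits of marker UMIs. By uniqueness and by the first 200 windows, 30 and 26 members were compared in NK barcodes against 45, so those counts fall partly by design. In marker-negative barcodes it was 25 and 20 against 34, and in marker-positive barcodes 13 and 14 against 21. The limit of 5 Hist1h2ap UMIs took marker-negative barcodes from 3XTg-AD only, so the fall to 1.55 is built in too. Beyond this, the causes of the changes were not tested. Shares of all genes past 1.5-fold were not counted under these alternatives. Of the remaining summary values 97 stayed within their limits, as did 141 single-gene values, while 5 further single-gene values moved, among them Hist1h1b (2.16), to 1.46 thinned, and Hist1h2ap (2.68), to 3.36 thinned and 3.27 without the top 1%. The marker-positive class rests on 39 and 35 barcodes and the ILC1-like class on 95 and 74, which limits what their counts can show.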
